A study of Mus musculus with 32 samples.

Results

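Origin licensing, origin firing and fork synthesis are described here for 44 genes of the replication machinery in blood-forming cells of mice with and without Kat7. The genes were taken by name from a fixed list and matched by Entrez identifier, and all 44 were found among the 27179 genes of the count table. They comprise 15 licensing genes (the 6 origin recognition complex genes Orc1 to Orc6, Cdc6, Cdt1, its inhibitor Gmnn, and the helicase genes Mcm2 to Mcm7) and 8 firing genes (Cdc7, Dbf4, Mcm10, Cdc45 and Gins1 to Gins4). A further 20 fork genes cover DNA polymerases alpha, delta and epsilon with primase, the clamp Pcna and its loader Rfc1 to Rfc5, the single-strand binding genes Rpa1 to Rpa3, Lig1 and Fen1. Mcm8, a helicase gene that works in recombination, is kept apart from the 3 classes.

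The study deleted Kat7, which encodes the histone acetyltransferase also called HBO1, in adult C57BL/6 mice and sequenced RNA of sorted cells from 16 animals. Each mouse gave 1 library of LSK cells, named for absent lineage markers and for the surface proteins Sca-1 and Kit, and 1 library of progenitors, whose gate the labels do not describe. Deletion used either RosaCreERT2, a Cre recombinase released by tamoxifen (called CreER below), or MX1-Cre, which is switched on by interferon after PolyIC (called Mx1Cre). Each of the 8 groups (population, Cre line, knockout or control) held 4 libraries from 4 mice. Knockout titles read Hbo1fl/fl with both alleles deleted. Control titles read Hbo1fl/+ with 1 allele deleted, whereas the treatment text calls the controls wild type, so controls carry Cre and received the same inducer but their second allele rests on the titles. Both Cre lines act in more cells than those sorted, and Cre line, inducer and mice cannot be told apart.

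Replication origins are licensed when the origin recognition complex, with CDC6 and CDT1, loads the MCM2-7 helicase onto DNA in late mitosis and G1. Geminin, the product of Gmnn, binds CDT1 and blocks loading again until mitosis ends. In S phase the kinase CDC7 with its activator DBF4, together with CDC45, GINS and MCM10, turns loaded helicases into active forks, which polymerases, the sliding clamp and its loader then serve. HBO1 is known as an acetyltransferase that binds ORC and MCM proteins and acetylates histones at origins, and many of these genes are textbook targets of E2F factors. Stem cells divide rarely and progenitors often, so the mRNA of this machinery is commonly read as a sign of cycling.

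Sequencing depth ran from 7.28 M to 18.4 M counts per library, with a median of 12.2 M. Kat7 stood at 39.3 to 77.9 CPM (counts rescaled to a common library total, with TMM factors) in the 16 control libraries and at 0 to 1.69 CPM in the 16 knockout libraries, so every library matched its genotype label. Ly6a, the gene of Sca-1, read 69.6 to 116 CPM in LSK CreER controls but 16.2 to 22.7 CPM in LSK Mx1Cre controls, above the 4.46 to 6.22 and 2.67 to 3.85 CPM of the progenitor controls. Kit read 369 to 461 CPM in LSK controls and 238 to 429 CPM in progenitor controls. A total of 2 LSK CreER knockout libraries, knockout 2 (labelled female) and knockout 3 (labelled male), went against the labelled sex. Their deviations from the group means correlated with those of the progenitor libraries of the same label at -0.0956 and -0.063. Whether these 2 were exchanged was not tested, and matching of libraries to mice follows the labels. Progenitor Mx1Cre control 1 and knockout 4 stood apart from all others by a skew towards short transcripts (slopes of log2 level on log2 exon length of -0.354 and -0.294). Results that rest on these libraries are given with and without them. In bulk RNA of sorted cells, fewer cells in a cycle phase and less RNA per cell cannot be told apart.

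Promoter sequence was examined because E2F sites are the best known shared feature of these genes. Entries for 36 of the 44 genes were found in the RefSeq promoter table (GRCm38.p6), which holds 250 bases before and 50 after each start, and the upstream 250 bases were searched on both strands for TTTCCCGC, TTTCGCGC, TTTGCCGC and TTTGGCGC. Matches on opposite strands can overlap and were both counted. At least 1 match was found in 9 of 36 members (25%), against 2.16% of the 27025 genes in the table. Licensing genes held one in 6 of 13 (46.2%), firing genes in 1 of 5 (20%) and fork genes in 2 of 17 (11.8%), and the Mcm8 promoter held none in this window. The matched stretches are shown 5′ to 3′ on the gene's strand, with the matching bases in capitals, because they are the sequence feature that licensing genes held most often in this search.
Orc1 (chr4:108579416-108579445, plus strand): ttcggttagtgGCGCGAAAagttttctcct
Orc3 (chr4:34614965-34614994, minus strand): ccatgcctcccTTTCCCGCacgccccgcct
Cdc6 (chr11:98908002-98908031, plus strand): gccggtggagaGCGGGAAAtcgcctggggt
Mcm5 (chr8:75109345-75109378, plus strand): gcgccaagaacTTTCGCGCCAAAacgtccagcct
Mcm6 (chr1:128359734-128359826, minus strand): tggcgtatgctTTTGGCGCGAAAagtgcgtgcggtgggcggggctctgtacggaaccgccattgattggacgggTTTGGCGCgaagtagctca
Mcm7 (chr5:138172030-138172059, minus strand): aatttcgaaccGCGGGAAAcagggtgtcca
Gins3 (chr8:95633507-95633536, plus strand): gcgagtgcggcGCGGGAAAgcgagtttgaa
Pola1 (chrX:93632275-93632304, minus strand): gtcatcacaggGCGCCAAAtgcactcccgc
Rfc3 (chr5:151651209-151651229, minus strand): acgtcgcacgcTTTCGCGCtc
The Mcm6 promoter held 3 matches, the first pair as overlapping copies on opposite strands, and the Mcm5 promoter held 2 that overlap in the same way. Nearest matches began 10 bases (Rfc3) to 165 bases (Mcm7) before the start. A match says only that these letters are present. Of the 9 genes with a match, 1 was called higher in LSK knockouts in the mean of both Cre lines (Orc3), against 5 higher and 3 lower among the 27 with no match in this window. Among the 8 genes with no promoter entry, 1 was called higher and 0 lower. Over all genes tested in that comparison 13.5% were called higher and 14.3% lower. With so few genes, no contrast by match is read from these counts.

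Levels were compared between genes per kilobase of exon, since longer transcripts collect more reads. Licensing genes had the highest median in control libraries, at 84.8 CPM per kb in LSK CreER cells and 95.05 in progenitor CreER cells. Fork genes followed at 57.8 and 60.5 CPM per kb, and firing genes were lowest at 33.8 and 37.1. The Mx1Cre controls kept this order, with medians of 68.1, 50.1 and 32.1 CPM per kb in LSK cells and 88.5, 63.6 and 38.3 in progenitors for licensing, fork and firing genes.

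**Figure D1:**
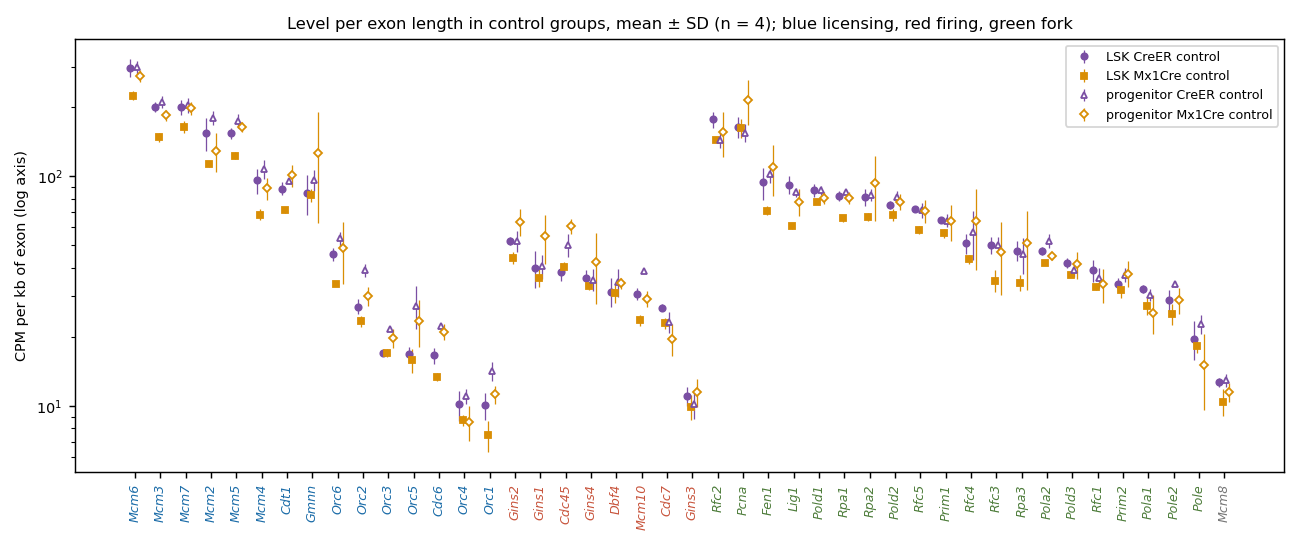
Level of each gene in the 4 control groups as CPM per kb of exon (log axis), mean ± SD of 4 libraries, ordered within licensing, firing and fork genes by the LSK CreER level. Licensing genes split into the abundant MCM2-7, Cdt1 and Gmnn and the scarcer ORC genes and Cdc6, with Mcm6 at the top and Orc1 and Orc4 at the bottom.

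Within the licensing class the genes fell into an abundant and a scarce set. Mcm6 was the highest of the 15 in all 8 groups, at 297 ± 26.6 CPM per kb (SD, n = 4) in LSK CreER controls and 298 ± 20.4 in progenitor CreER controls. Mcm3 and Mcm7 came next in LSK CreER controls at 201 ± 9.62 and 199.9 ± 15.6, a gap smaller than their spread, and Mcm4 was the lowest helicase subunit at 95.9 ± 12. The 6 helicase subunits, which enter 1 ring in equal number, spanned a 2.31-fold to 3.29-fold range across the 8 groups. ORC spanned 3.93-fold to 5.69-fold, from Orc1 (10.1 ± 1.37) and Orc4 (10.2 ± 1.51), which did not differ beyond their spread, up to Orc6 (45.8 ± 3.16) in LSK CreER controls. Cdt1 (88.2 ± 5.75) and Gmnn (84.8 ± 16.7) also did not differ beyond their spread.

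Among firing genes, the GINS subunits spanned 4.46-fold to 5.49-fold, with Gins2 highest (52.2 ± 2.19 CPM per kb in LSK CreER controls) and Gins3 lowest (11.1 ± 1.02). At the fork, Rfc2 (177 ± 13.8) and Pcna (164 ± 17.2) were the most abundant and did not differ beyond their spread, and Pole, the catalytic subunit of the leading-strand polymerase, was the lowest in all 8 groups (19.6 ± 3.75). The RPA trimer was the most even of these complexes, at 1.46-fold to 1.93-fold. Mcm8 stood at 12.7 ± 0.547 CPM per kb, near Orc1 and Gins3. Mice of a group varied least in Mcm5 (SD of log2 CPM with 1 added, pooled over the 8 groups, 0.0764) and most in Pole (0.349), Gmnn (0.317), Rpa3 (0.315) and Rfc4 (0.266). Without progenitor Mx1Cre control 1 and knockout 4 these last 4 values were 0.2195, 0.1898, 0.2437 and 0.1926, and both ends of the order changed. Cdt1 was then lowest (0.07203), with Prim1 (0.07701) and Mcm5 (0.07722) close, and Orc5 (0.2412) came next below Rpa3 at the top.

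The central question of the design is how loss of Kat7 altered these genes in LSK cells. In the mean of both Cre lines, 7 of 44 genes rose and 3 fell, and the changes were small, from -0.28 to 0.35 on the log2 scale. A gene counted as changed when edgeR's quasi-likelihood test gave a Benjamini-Hochberg adjusted p under 0.05 over all 14102 genes tested, and all 44 passed the filter on low counts. Values with ± after a gene name are log2 differences with their standard error (SE). The share called (10 of 44, 22.7%) was near that of all genes tested, 27.8% (13.5% higher and 14.3% lower). The median log2 fold change was 0.09, against 0.01 over all genes tested, and 32 of 44 values were above 0. For 43 of 44 genes the 95% interval of the change lay within 1.5-fold in either direction. By class, 3 licensing genes rose and 1 fell of 15 (median 0.06), 2 firing genes rose and 1 fell of 8 (median 0.16), and 2 fork genes rose and 1 fell of 20 (median 0.07).

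**Figure D2:**
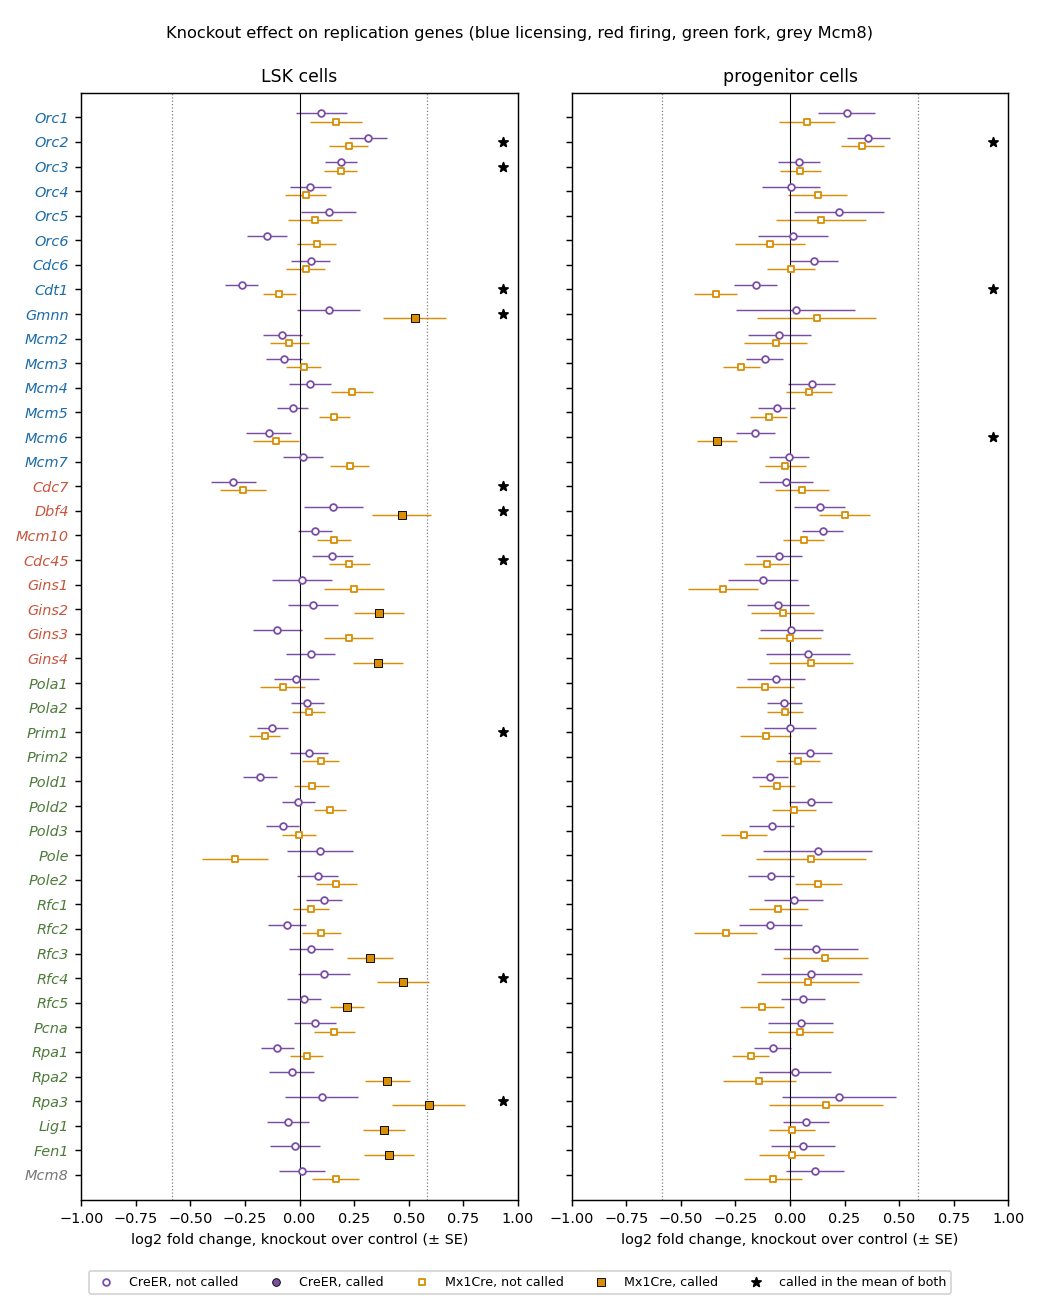
Log2 fold change, knockout over control (± SE), of the 44 genes in LSK cells (left) and progenitors (right), with circles for CreER, squares for Mx1Cre, filled symbols for called genes and stars for genes called in the mean of both. In LSK cells the filled symbols are 11 Mx1Cre rises, and in progenitors the single filled symbol is Mcm6 with Mx1Cre. Dotted lines mark 1.5-fold.

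Within licensing, the changed genes were 2 ORC subunits, Cdt1 and its inhibitor. Orc2 (Entrez 18393, chr1:58462771-58505113 on mm10), a core ORC subunit, stood at 97.6, 96.1, 82.4 and 89.6 CPM in the 4 LSK CreER controls and at 128.5, 125, 99.8 and 98.5 in the knockouts. With Mx1Cre it read 80.7, 80.45, 82.4 and 72.8 CPM in controls and 93.4, 92.0, 93.8 and 92.8 in knockouts. Knockouts were above controls with no overlap in both lines, and Orc2 rose by 0.27 ± 0.06 in log2 (SE; edgeR adjusted p = 0.00411). Orc3 (Entrez 50793, chr4:34566781-34614963), its partner in the complex, measured 109, 111, 103 and 108 CPM against 108, 132, 123 and 125 with CreER, where knockout 1 lay among the controls. With Mx1Cre it measured 105, 104, 114 and 107 against 131, 122, 114 and 126, just clear of overlap (highest control 114.3, lowest knockout 114.4), and it rose by 0.19 ± 0.05 in log2 (SE; edgeR adjusted p = 0.0136).

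Cdt1 (Entrez 67177, chr8:122568015-122573130), which brings the helicase to ORC, was at 192, 187, 211 and 183 CPM in LSK CreER controls and at 169, 159.5, 159 and 153 in knockouts, lower in all 4. In Mx1Cre cells the values were 150.3, 162, 157.5 and 158 against 145, 135, 155 and 157, and these overlapped. Cdt1 changed by -0.18 ± 0.05 in log2 (SE; edgeR adjusted p = 0.0193) in the mean of both lines. Gmnn (Entrez 57441, chr13:24751845-24761937) went from 69.55, 75.8, 107 and 79.4 CPM to 99.9, 86.4, 83.0 and 93.5 with CreER, where control 3 was the highest of the 8. With Mx1Cre it went from 85.0, 78.4, 86.0 and 74.75 to 123, 85.4, 124 and 138, where knockout 2 lay within the controls and the others far above them. Gmnn rose by 0.33 ± 0.10 in log2 (SE; edgeR adjusted p = 0.0221) in the mean of both lines. The call was lost without LSK CreER control 1 (adjusted p = 0.051) or without LSK Mx1Cre knockout 4 (adjusted p = 0.0507).

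The ratio of Gmnn to Cdt1 CPM, chosen after these values were seen and given with no test, joined both shifts. It ran from 0.362 to 0.505 in LSK CreER controls and from 0.521 to 0.613 in knockouts. With Mx1Cre it ran from 0.474 to 0.566 in controls and from 0.634 to 0.879 in knockouts, so the inhibitor stood higher against its target in each of the 8 LSK knockout libraries than in any control library of the same line. This was not particular to LSK cells. In progenitors it ran from 0.39 to 0.5022 in controls and 0.5035 to 0.5295 in knockouts with CreER, just clear of overlap. With Mx1Cre the progenitor ratios overlapped, at 0.425 to 0.848 and 0.572 to 1.03. Gmnn has a short exon length (977 bp, against 2191 bp for Cdt1), and the part of length in this ratio was not tested.

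The other 11 licensing genes were not called in LSK cells. The helicase genes gave -0.06 ± 0.06 (Mcm2), -0.03 ± 0.06 (Mcm3), 0.14 ± 0.07 (Mcm4), 0.06 ± 0.05 (Mcm5), -0.12 ± 0.07 (Mcm6) and 0.12 ± 0.06 (Mcm7) on the log2 scale (± SE). Orc1, the ATPase subunit known to vary over the cell cycle, gave 0.13 ± 0.08, and the loader Cdc6 gave 0.04 ± 0.06. Mcm6 illustrates the spread, with 986.5, 728, 693 and 703 CPM in LSK CreER knockouts against 946, 805, 907 and 788 in controls. Knockout 1 was the highest of these 8 libraries and the other 3 knockouts the lowest.

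Among firing genes, the 2 parts of the CDC7-DBF4 kinase moved apart. Cdc7 (Entrez 12545, chr5:106964315-106984440), the catalytic subunit, stood at 75.3, 81.3, 81.1 and 79.9 CPM in LSK CreER controls and 62.0, 55.05, 72.7 and 66.2 in knockouts, all 4 of them lower. With Mx1Cre the controls read 70.8, 63.1, 66.8 and 70.6 and the knockouts 47.4, 64.95, 62.7 and 53.1, where knockout 2 overlapped the controls. Cdc7 changed by -0.28 ± 0.07 in log2 (SE; edgeR adjusted p = 0.00879). Dbf4 (Entrez 27214, chr5:8396969-8422725), the activating subunit, read 65.0, 78.5, 73.8 and 90.9 CPM against 67.8, 104, 74.0 and 95.6 with CreER, which overlapped widely. With Mx1Cre it read 80.45, 68.8, 82.8 and 70.7 against 101, 91.7, 114 and 115, with all 4 knockouts above the controls, and in the mean of both lines it rose by 0.31 ± 0.09 in log2 (SE; edgeR adjusted p = 0.021). Leaving out 1 library at a time ended the Dbf4 call for 4 of 16 libraries (LSK CreER control 1, LSK Mx1Cre control 2, and LSK CreER knockouts 2 and 4), with a highest adjusted p of 0.0599.

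The ratio of Dbf4 to Cdc7 CPM, again chosen after the values were seen, ran from 0.864 to 1.14 in LSK CreER controls and from 1.02 to 1.89 in knockouts, which overlapped. With Mx1Cre it ran from 1.00 to 1.24 in controls and from 1.41 to 2.16 in knockouts, with no overlap. Cdc45 (Entrez 12544), the helicase cofactor, rose by 0.19 ± 0.07 in log2 (SE; edgeR adjusted p = 0.0439). Its call was the least firm of the 10 and was lost when any of 11 libraries was left out (highest adjusted p 0.099). Mcm10 (0.11 ± 0.06) and the GINS genes, from 0.06 ± 0.08 (Gins3) to 0.21 ± 0.08 (Gins2), were not called.

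**Figure D3:**
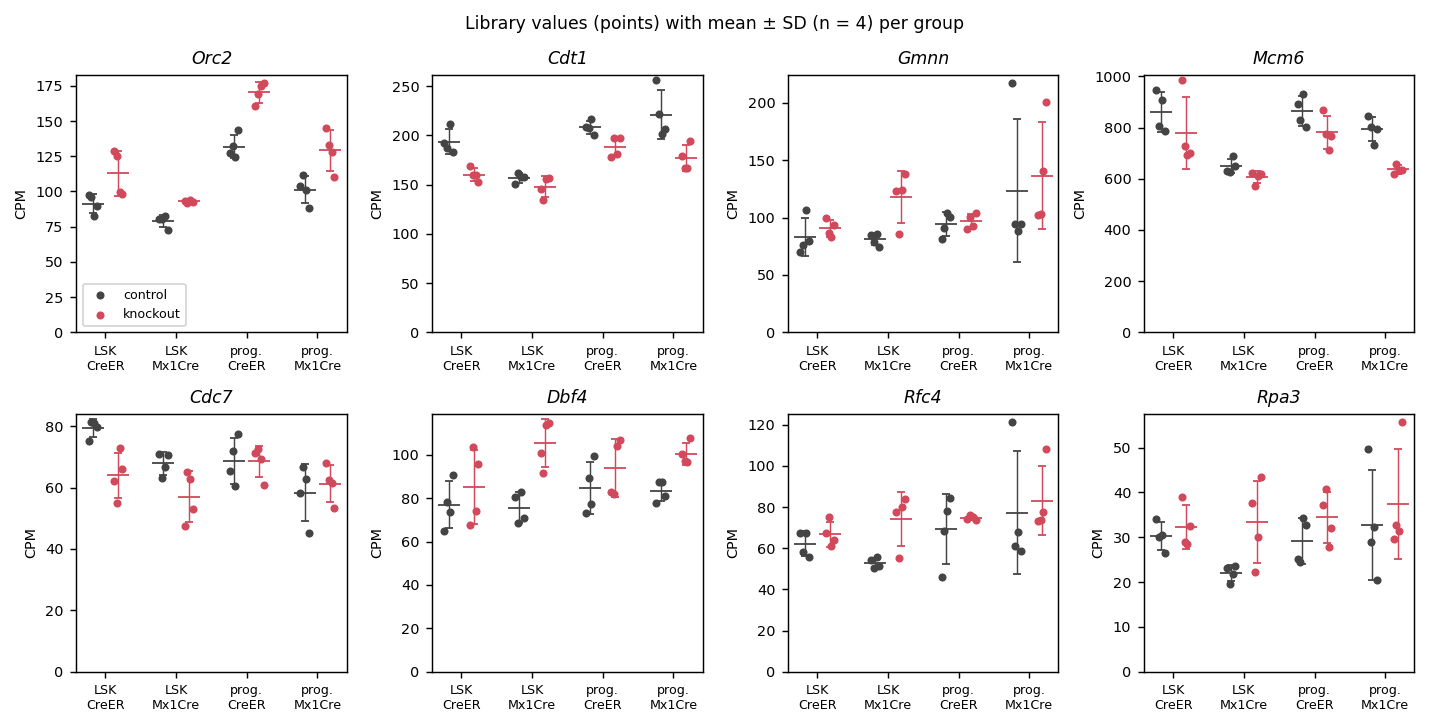
CPM of 8 genes in every library, with the mean ± SD of 4 libraries per group, controls in grey and knockouts in red. Orc2 is higher in knockouts with no overlap in 3 of the 4 pairs of groups. In Gmnn, Rfc4 and Rpa3, 1 control and 1 knockout of the progenitor Mx1Cre pair stand far above the rest.

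At the fork, Rfc4 (Entrez 106344, chr16:23113948-23127730), a clamp loader subunit, read 67.3, 58.0, 67.5 and 55.7 CPM in LSK CreER controls and 67.5, 75.0, 60.8 and 64.1 in knockouts, which overlapped. With Mx1Cre it read 54.2, 50.6, 55.7 and 51.5 against 77.7, 55.0, 79.8 and 83.9, with knockout 2 among the controls and the other 3 far above. Rfc4 rose by 0.29 ± 0.08 in log2 (SE; edgeR adjusted p = 0.0149). Rpa3 (Entrez 68240), the smallest subunit of the single-strand binding protein, read 34.0, 30.2, 30.6 and 26.4 CPM against 39.1, 29.0, 28.6 and 32.6 with CreER and 23.1, 19.5, 21.8 and 23.5 against 37.7, 22.2, 30.2 and 43.5 with Mx1Cre, which overlapped in both. It rose by 0.35 ± 0.12 in log2 (SE; edgeR adjusted p = 0.0366), a call lost when any of 9 libraries was left out (highest adjusted p 0.0925) and lost once the length trend was removed. Prim1 (Entrez 19075), the catalytic primase subunit, stood at 101, 97.9, 97.9 and 99.3 CPM against 96.7, 87.1, 90.2 and 87.2 with CreER and at 85.7, 92.3, 84.8 and 84.0 against 75.4, 75.2, 77.75 and 84.1 with Mx1Cre. Every CreER knockout was below the controls, in Mx1Cre the highest knockout lay just inside them, and Prim1 changed by -0.14 ± 0.05 in log2 (SE; edgeR adjusted p = 0.04), a call lost without any of 8 libraries. The other 17 fork genes were not called, among them Pcna (0.12 ± 0.07), Pold1 (-0.06 ± 0.06) and Pole (-0.10 ± 0.11).

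Of the 10 calls in the mean of both lines, Orc2, Orc3, Cdt1, Cdc7 and Rfc4 were kept whichever of the 16 LSK libraries was left out. The number of calls over these omissions ran from 6, without LSK Mx1Cre control 2 or without LSK CreER knockout 4, to 16, without LSK Mx1Cre knockout 2. Here and below, shares over all genes are not given for omissions of 1 library. Nothing particular to the members is therefore read from how such counts moved. Without the 2 libraries that went against the labelled sex, 7 were called (6 of the 10), beside 21.8% of all genes tested. The calls of Orc3 (adjusted p = 0.0804), Dbf4 (0.0606), Cdc45 (0.0766) and Prim1 (0.0961) ended without these 2 libraries together. Tested against a change of 1.5-fold rather than 0, none of the 44 was called by edgeR, beside 3.76% of all genes tested.

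Within single Cre lines, members were called in LSK cells with Mx1Cre and not with CreER. With CreER, edgeR called 0 of 44, beside 3.16% of all genes tested, while 5 had an unadjusted p under 0.05. The lowest adjusted p was that of Orc2 (0.31 ± 0.09, edgeR adjusted p = 0.0611). DESeq2 called 2, 1 higher and 1 lower, beside 6.30% of all genes tested, and limma-voom called 0, beside 3.47%. All 44 intervals lay within 1.5-fold. Orc2, Orc3, Cdt1, Cdc7, Cdc45 and Prim1 were called in the mean of both lines and in neither alone. Of these, Orc2, Cdc7 and Prim1 gave 0.31 ± 0.09, -0.30 ± 0.10 and -0.12 ± 0.07 with CreER and 0.22 ± 0.09, -0.26 ± 0.10 and -0.16 ± 0.07 with Mx1Cre. Cdt1, by contrast, overlapped between Mx1Cre knockouts and controls, as given above. With Mx1Cre, 11 of 44 (25%) rose and 0 fell, beside 31% of all genes tested called, 15.2% higher and 15.9% lower, and the median was 0.16 against -0.01 over all genes. These were 1 of 15 licensing genes, 3 of 8 firing genes and 7 of 20 fork genes.

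The Mx1Cre rises included the flap and nick enzymes of lagging-strand synthesis. Lig1, the ligase that joins Okazaki fragments, stood at 206, 219, 220.4 and 213 CPM in controls and 299, 261, 300.4 and 269.8 in knockouts, all 4 higher, and rose by 0.39 ± 0.10 in log2 (SE; edgeR adjusted p = 0.0057). Fen1, the flap endonuclease, stood at 154, 149, 164 and 161 against 220.0, 178, 221 and 222.5, again with no overlap, and rose by 0.41 ± 0.11 in log2 (SE; edgeR adjusted p = 0.0116). Rpa2 rose by 0.40 ± 0.10 in log2 (SE; edgeR adjusted p = 0.00753), Rfc4 by 0.47 ± 0.12, Rfc3 by 0.32 ± 0.10, Rfc5 by 0.22 ± 0.08 and Rpa3 by 0.59 ± 0.17 (edgeR adjusted p from 0.00644 to 0.0415). Gmnn (0.53 ± 0.14), Dbf4 (0.47 ± 0.13), Gins2 (0.36 ± 0.11) and Gins4 (0.36 ± 0.11) made up the rest. In CreER knockouts the same enzymes gave -0.05 ± 0.09 (Lig1) and -0.02 ± 0.11 (Fen1), neither called.

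The difference between the Cre lines was tested directly. No member was called (0 of 44, beside 4.37% of all genes tested), and 5 had an unadjusted p under 0.05 (Pold1, Rfc4, Rpa2, Lig1 and Fen1). DESeq2 called 2, beside 8.715% of all genes tested, and limma-voom 0, beside 3.45%. The lowest edgeR adjusted p was that of Lig1, with a difference of 0.44 ± 0.13 in log2 (SE; edgeR adjusted p = 0.068). LSK Mx1Cre knockout 2 stood below the other 3 knockouts in Gmnn, Rfc4, Fen1 and Rpa3. Without it, 17 members were called with Mx1Cre and 7 in the difference between lines, and without LSK CreER knockout 1 the difference held 1 call. Without LSK Mx1Cre control 1, control 2 or knockout 3, 7 were called with Mx1Cre, and without knockout 4, 6. Shares over all genes are not given for these omissions either. Gmnn, Fen1, Lig1, Rfc4 and Rpa2 kept their call in all 8 omissions, whereas Rfc5 lost it in 7, Gins2 in 6, Gins4 in 5, Rfc3 in 4, and Dbf4 and Rpa3 in 1 each. With the replicate number as a block 10 were called, beside 29.9% of all genes tested, and Rfc5 was not (adjusted p = 0.058).

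Transcript length moved with the Mx1Cre result. The 11 genes called higher had a median exon length of 1364 bp (638 to 3520), the 33 not called 2960 bp (1161 to 7129) and all genes tested 2619 bp. The slope of log2 level on log2 exon length was -0.084, 0.022, -0.123 and -0.135 in the 4 LSK Mx1Cre knockouts and 0.025 to 0.058 in the controls. The library without a negative slope, knockout 2, was the one with the smaller rises. With this trend removed from every library, 12 members were called, 11 higher and 1 lower, beside 30.3% of all genes tested. Of the 12, 6 were among the 11 above (Gmnn, Dbf4, Rfc4, Rpa2, Lig1 and Fen1). The calls gained were the longer Orc2 (0.29), Orc3 (0.36), Mcm4 (0.31), Mcm5 (0.22) and Mcm10 (0.23), with Prim1 (-0.24) lower, so licensing genes went from 1 to 5 called higher. Rpa3, Rfc3, Rfc5, Gins2 and Gins4, all of short exon length, were no longer called. The part of length in these shifts was not tested beyond this adjustment. In CreER cells the same adjustment gave 2 calls, Orc2 (0.31) and Cdt1 (-0.26), beside 4.64% of all genes tested.

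**Figure D4:**
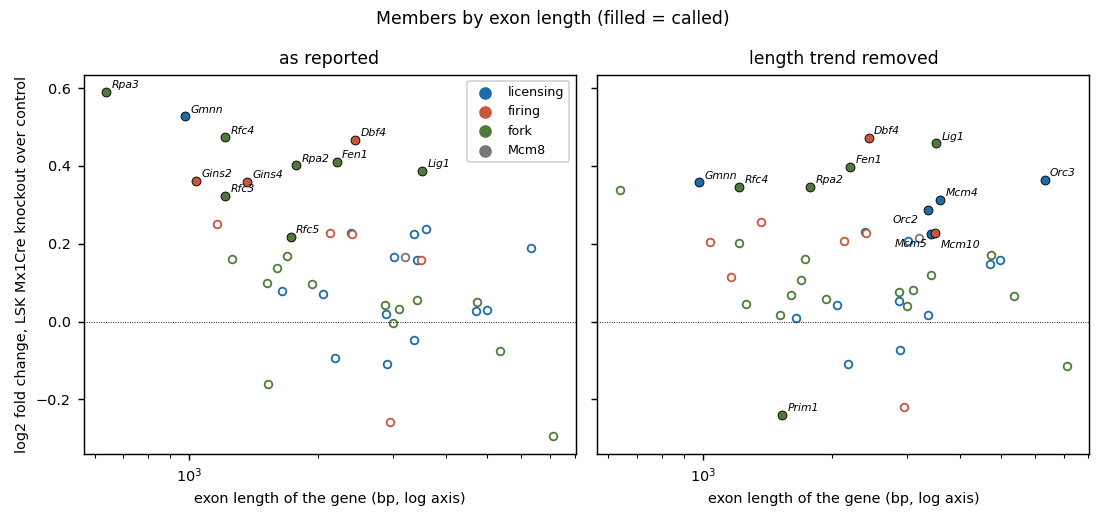
Log2 fold change in LSK Mx1Cre knockouts against exon length (log axis) for the 44 genes, as reported (left) and with each library's length trend removed (right), filled where called. On the left the called genes lie at short lengths, with Lig1 the longest at 3520 bp, and on the right they reach Orc3.

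Markers of other cells also moved in these libraries. The 5 megakaryocyte markers summed to 168 to 255 CPM in LSK Mx1Cre controls and 70.2 to 83.0 CPM in knockouts, all 5 with a lower mean, and to 335.9 to 409 CPM against 178 to 226 CPM with CreER. The 8 neutrophil markers summed to 14878 to 16804 CPM in LSK Mx1Cre controls and 15650 to 20696 CPM in knockouts (6 of 8 with a higher mean), and to 3792 to 8438 against 5372 to 12526 CPM with CreER (8 of 8). The 8 erythroid markers summed to 60.8 to 291 CPM in LSK Mx1Cre controls and 17.2 to 35.4 CPM in knockouts, with 4 higher and 4 lower. The 6 monocyte markers summed to 365.6 to 802 CPM in LSK CreER controls and 471 to 1047 CPM in knockouts (6 of 6 with a higher mean), and to 1263 to 1710 against 1113 to 1295 CPM with Mx1Cre (4 of 6 lower). The 7 markers of the sort had a lower mean in knockouts for 7 of 7 genes with CreER (sums of 1473 to 1607 CPM in controls and 1197 to 1758 CPM in knockouts) and for 5 of 7 with Mx1Cre (1285 to 1569 against 987 to 1321 CPM). The 5 endothelial and stromal markers were scarce, at 8.79 to 9.80 CPM against 3.44 to 6.54 with CreER and 2.97 to 4.92 against 0.855 to 1.42 with Mx1Cre. Each marker of these 6 lists had counts in at least 1 library of each pair of groups. Their part in the replication genes' values was not tested.

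In progenitors, 1 of 44 genes rose and 2 fell in the mean of both Cre lines, beside 7.79% of all 13692 genes tested (2.28% higher and 5.51% lower). The 3 were licensing genes, and the median over the 44 was 0.02. Orc2 stood at 127, 132, 124 and 143.5 CPM in CreER controls and 160.4, 169, 175 and 177 in knockouts, with no overlap, and at 104, 112, 101 and 88.5 against 145, 133, 128 and 111 with Mx1Cre, where knockout 4 overlapped. It rose by 0.34 ± 0.07 in log2 (SE; edgeR adjusted p = 0.00505), a call kept in all 16 omissions of a library.

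Cdt1 measured 209, 207.5, 216 and 200.5 CPM in progenitor CreER controls and 178, 197.5, 181 and 197 in knockouts, and 256, 221.5, 201 and 206 against 178.5, 167, 167 and 194.5 with Mx1Cre. All knockouts lay below all controls of their line, and Cdt1 changed by -0.25 ± 0.07 in log2 (SE; edgeR adjusted p = 0.0394). Mcm6 (Entrez 17219, chr1:128331575-128359705), the most abundant helicase subunit, read 892.5, 831, 933 and 801.5 against 868.5, 776, 713 and 767 CPM with CreER, which overlapped. With Mx1Cre it read 846, 803, 731 and 795 against 618, 659, 636 and 633.5, with no overlap, and it changed by -0.25 ± 0.06 in log2 (SE; edgeR adjusted p = 0.0266). Omitting 1 library ended the call of Cdt1 for 12 of 16 libraries (highest adjusted p 0.0856) and that of Mcm6 for 6 (0.0644). The count of 3 fell to 1 without any of progenitor CreER controls 1 and 3, CreER knockouts 2, 3 and 4, or Mx1Cre knockout 1. It was 4 without the 2 libraries skewed towards short transcripts, where 14.6% of all genes tested were called. Monocyte markers also moved in progenitors, where their sums were 2481 to 3484 CPM in Mx1Cre controls and 1161 to 1712 CPM in knockouts (5 of 6 with a lower mean) and 625 to 1399 against 427 to 886 CPM with CreER (5 of 6). With Mx1Cre the 6 B cell markers summed to 256 to 294 CPM in controls and 120 to 193 CPM in knockouts (5 of 6 lower). With CreER these sums overlapped, at 55.9 to 124 against 72.0 to 95.2 CPM (4 of 6 lower). The 5 megakaryocyte markers went opposite ways, from 27.3 to 36.5 to 48.2 to 63.6 CPM with Mx1Cre (4 of 5 higher). With CreER they went from 174 to 358 to 91.3 to 206 CPM (4 of 5 lower). Erythroid markers had a higher mean in knockouts for 7 of 8 in both lines, with overlapping sums. Their part in the values of Orc2, Cdt1 and Mcm6 was not tested.

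Separately, edgeR called 0 of 44 in CreER progenitors, beside 0.168% of all genes tested, with 1 at an unadjusted p under 0.05 (Orc2, 0.36 ± 0.10, edgeR adjusted p = 0.187). There DESeq2 called 1, beside 1.34% of all genes tested, and limma-voom 0, beside 0.263%. In Mx1Cre progenitors 1 of 44 was called, beside 6.08% of all genes tested (1.59% higher and 4.49% lower): Mcm6, which fell with a change of -0.34 ± 0.09 in log2 (SE; edgeR adjusted p = 0.0378). DESeq2 called 4, beside 9.23% of all genes tested, and limma-voom 1, beside 5.89%. Mcm6 lost this call in 7 of 8 omissions of 1 library, and 2 genes were called without progenitor Mx1Cre control 1 or without knockout 4. Orc2 (0.33 ± 0.10, edgeR adjusted p = 0.0598) and Cdt1 (-0.34 ± 0.10, edgeR adjusted p = 0.0557) missed the threshold there. The difference between the lines called 0 members by edgeR, DESeq2 and limma-voom (background 0.299%, 0.876% and 0.139%), and none had an unadjusted p under 0.05. Firing and fork genes gave no call in progenitors. Dbf4 (0.19 ± 0.08) and Gins1 (-0.22 ± 0.11) had the firing values farthest from 0, and Gmnn gave 0.07 ± 0.19 with a wide error.

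The knockout effect was then compared between populations in 1 fit of all 32 libraries. No member was called (0 of 44, beside 2.52% of all genes tested) by edgeR, DESeq2 or limma-voom, and 3 had an unadjusted p under 0.05. These were Cdc7 (-0.31 ± 0.12, LSK minus progenitor), Cdc45 (0.26 ± 0.09) and Gins1 (0.34 ± 0.15), all firing genes, and the lowest adjusted p was 0.153. A fall of Cdc7 was thus called in LSK cells and not in progenitors, where it read 65.3, 71.8, 60.4 and 77.5 against 71.1, 72.4, 69.4 and 61.0 CPM with CreER, but the difference between populations missed the threshold.

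Between LSK cells and progenitors of control mice, the genes called were lower in LSK cells, with a larger share of licensing than of fork genes. In CreER controls 7 of 44 genes were lower in LSK cells and 0 higher, beside 17.9% of all 14459 genes tested called (10.6% higher and 7.28% lower). They were 5 of 15 licensing genes, 2 of 8 firing genes and 0 of 20 fork genes. With the mouse as a block, since both libraries come from the same animals, 8 were called, 7 lower and 1 fork gene higher. Of all genes tested, 22.2% were called in that fit. The class medians were -0.18 for licensing, -0.01 for firing and 0.00 for fork genes, and 0 of 15 licensing values were above 0. In Mx1Cre controls 23 of 44 were lower (52.3%) and 0 higher, beside 28.2% called (12.8% higher and 15.4% lower), with 12 of 15 licensing, 4 of 8 firing and 7 of 20 fork genes and medians of -0.36, -0.32 and -0.20. The controls of these comparisons are those of the knockout comparisons above.

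**Figure D5:**
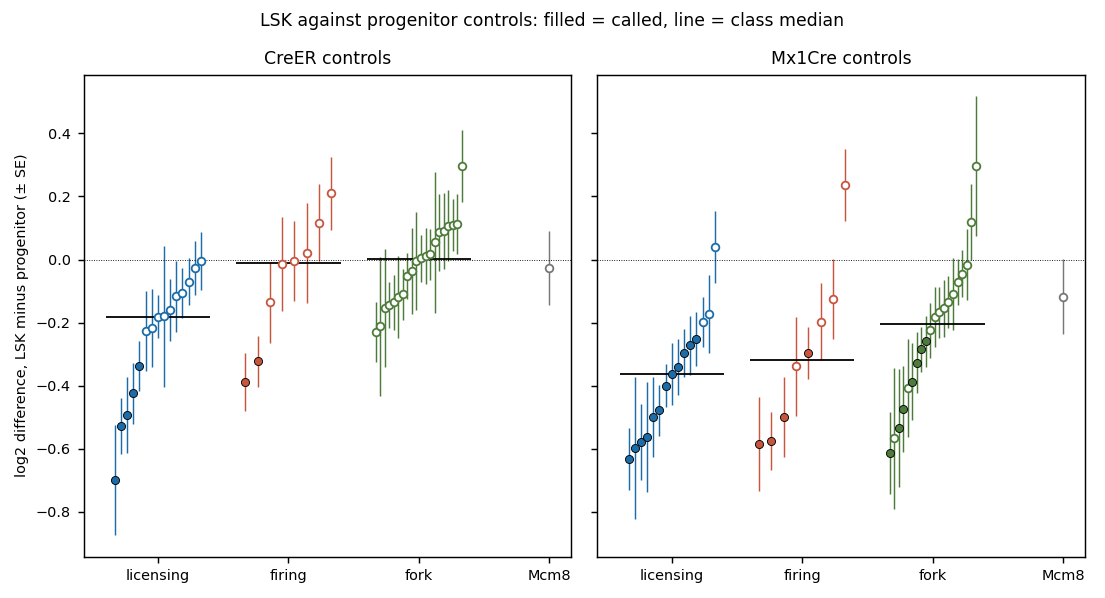
Log2 difference, LSK minus progenitor, in CreER (left) and Mx1Cre (right) controls, 1 point per gene with its SE, sorted within each class, filled where called, with a line at the class median. All licensing points but 1 lie below 0, while fork points straddle 0 in CreER controls, and no called point lies above 0.

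The CreER calls were ORC genes, the loader Cdc6, and 2 helicase activators. Orc1 read 36.2, 26.9, 30.4 and 28.1 CPM in LSK CreER controls and 48.5, 42.7, 40.4 and 39.5 in progenitors, lower in all 4, with a difference of -0.49 ± 0.12 in log2 (SE; edgeR adjusted p = 0.00458). Orc2 differed by -0.53 ± 0.09 in log2 (SE; edgeR adjusted p = 1.183e-04) and Orc3 by -0.34 ± 0.08 in log2 (SE; edgeR adjusted p = 0.00317). Orc5 read 35.4, 31.5, 34.6 and 37.2 against 46.05, 61.05, 47.4 and 71.0 CPM and had the largest difference, -0.70 ± 0.17 in log2 (SE; edgeR adjusted p = 0.00538). Cdc6 read 87.0, 76.2, 77.1 and 72.0 against 103.5, 106, 108 and 102 CPM, without overlap, and differed by -0.42 ± 0.10 in log2 (SE; edgeR adjusted p = 0.00252). Mcm10, which steadies the active helicase, read 108, 115, 99.1 and 108 against 134, 132, 138 and 135.5 CPM and differed by -0.32 ± 0.08 in log2 (SE; edgeR adjusted p = 0.006). Cdc45 read 81.7, 75.6, 92.4 and 79.6 against 90.5, 114, 118 and 109 CPM, where 1 LSK library lay above the lowest progenitor, and differed by -0.39 ± 0.09 in log2 (SE; edgeR adjusted p = 0.0038). All 7 calls were kept whichever of the 8 libraries was left out. Among fork genes the extremes were Rfc2 (0.30 ± 0.11) and Pole2 (-0.23 ± 0.09), neither called.

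In Mx1Cre controls the lower genes spanned the whole sequence from licensing to fork. Cdc6 read 64.5, 60.7, 65.6 and 61.2 CPM in LSK cells and 107, 104, 90.5 and 93.8 in progenitors, with no overlap, and differed by -0.63 ± 0.10 in log2 (SE; edgeR adjusted p = 2.889e-05). Cdt1 read 150.3, 162, 157.5 and 158 against 256, 221.5, 201 and 206 CPM and differed by -0.48 ± 0.08 in log2 (SE; edgeR adjusted p = 8.088e-05). Cdc45 read 83.4, 83.6, 93.3 and 85.7 against 143, 122, 123 and 132.5 CPM and differed by -0.58 ± 0.09 in log2 (SE; edgeR adjusted p = 5.847e-05). These 3 were lower in every LSK library than in any progenitor library. Of the helicase subunits, Mcm3, Mcm4, Mcm5, Mcm6 and Mcm7 were lower by -0.25 (Mcm7) to -0.40 (Mcm5) and Mcm2 was not called. The fork genes called were Rfc4, Rfc5, Pcna, Rpa1, Rpa2, Lig1 and Fen1, among which Fen1 (-0.61 ± 0.13, edgeR adjusted p = 0.00115) and Rpa1 (-0.28 ± 0.07, edgeR adjusted p = 0.00511) kept their call in all 8 omissions.

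Progenitor Mx1Cre control 1 carried part of this Mx1Cre count. It read 217 CPM for Gmnn against 88.5 to 94.5 in the other 3 progenitor Mx1Cre controls, 121.5 for Rfc4 against 58.5 to 68.0, and 309 for Mcm2 against 461 to 487. Without it 12 members were called, and Gmnn (adjusted p = 0.576) and Rfc4 (0.374) were among the 11 lost. Without it and progenitor Mx1Cre knockout 4, which enters the fit through the shared spread, 15 were called, 8 licensing, 4 firing and 3 fork genes. Of all genes tested, 19.98% were called in that fit, against 28.2% in the reported fit. With the fit limited to the 8 libraries compared, 5 remained (Cdc6, Cdt1, Mcm5, Cdc45 and Gins2), beside 9.51% of all genes tested. The share called thus fell over all genes as well as among the members. Cdc6, Cdt1, Cdc45, Orc1, Orc2, Mcm3, Mcm5, Mcm10, Gins1, Gins2, Fen1 and Rpa1 kept their call whichever of the 8 libraries was omitted.

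The larger count in Mx1Cre than in CreER controls is not itself shown as a difference. A test of that difference, added after the data were examined, called 0 of 44 (beside 1.11% of all genes tested), with 14 at an unadjusted p under 0.05 and a lowest adjusted p of 0.098 (Cdt1). DESeq2 called 2, beside 2.73% of all genes tested, and limma-voom 0, beside 0.892%. The summed licensing level was 4054 ± 234 CPM (SD, n = 4) in LSK CreER controls and 3159 ± 101 in LSK Mx1Cre controls, with no overlap, against 4466 ± 206 and 3987 ± 163 in progenitors. The summed fork level was 3075 ± 103 and 2565 ± 65.7 CPM in LSK cells and 3055 ± 72.9 and 3004 ± 272 in progenitors. Sums weigh the most abundant genes. The median over licensing genes in each LSK library overlapped, at 106.6 to 111.1 CPM in CreER and 104.1 to 114.3 CPM in Mx1Cre controls. That over fork genes did not, at 129.0 to 143.1 and 115.1 to 123.5 CPM. Of the 8 neutrophil markers, all had a lower mean in LSK cells than in progenitors in both lines, with progenitor sums of 10916 to 20065 CPM (CreER) and 25915 to 41825 CPM (Mx1Cre). All 8 erythroid markers also had a lower mean in LSK cells in both lines, with sums of 173 to 283 CPM against 685.5 to 1089 in progenitors (CreER) and 60.8 to 291 against 146 to 1067 (Mx1Cre). Monocyte markers were lower in 5 of 6 with CreER (365.6 to 802 against 625 to 1399 CPM) and in 6 of 6 with Mx1Cre (1263 to 1710 against 2481 to 3484 CPM). Their part in these differences was not tested.

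Related genes that feed or steer replication were listed with earlier results of these data known and are counted in LSK cells in the mean of both lines. Of all genes tested 27.8% were called there, 13.5% higher, and with so few genes a list nothing particular to a list is read from its count. None of 7 further firing factors was called by edgeR, and none had an unadjusted p under 0.05. Of 17 further fork factors 1 rose, Mcmbp (0.16 ± 0.05), which encodes an MCM-binding chaperone. In nucleotide supply, the ribonucleotide reductase genes Rrm1 (0.22 ± 0.06) and Rrm2 (0.39 ± 0.06, edgeR adjusted p = 3.105e-04) rose. Histone handling at the fork gave 3 of 7 higher: the chaperones Asf1a (0.28 ± 0.08) and Asf1b (0.25 ± 0.06), and the acetyltransferase Hat1 (0.41 ± 0.08, edgeR adjusted p = 0.0014). Of 19 regulators of the G1 to S transition, Ccne1 and Ccna2 (0.37 ± 0.09) rose and E2f6 (-0.28 ± 0.08), a repressor of E2F targets, fell. Of 4 further cycling genes, Cdk1 (0.39 ± 0.12) and Ccnb1 (0.43 ± 0.16), which drive mitosis, rose.

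Ccne1, the cyclin E1 gene that acts before origin firing, had the largest change in LSK cells among these lists and the 44 members. It stood at 32.5, 33.8, 33.4 and 29.2 CPM in LSK CreER controls and 51.3, 51.7, 50.1 and 46.9 in knockouts, and at 34.5, 26.4, 23.9 and 24.2 against 52.2, 40.7, 53.1 and 45.7 with Mx1Cre. Knockouts were above controls with no overlap in both lines, and Ccne1 rose by 0.72 ± 0.08 in log2 (SE; edgeR adjusted p = 7.172e-06). It was also the single gene reported here from the related lists called with CreER alone (0.64 ± 0.12, edgeR adjusted p = 0.00722), a rise larger than that of any of the 44 members there. With Mx1Cre, Rrm2b, a p53-responsive reductase subunit, fell (-0.57 ± 0.12) and differed between the lines by -0.78 ± 0.17 in log2 (SE; edgeR adjusted p = 0.0119). In progenitors edgeR called none of the genes reported here from these lists in the mean of both lines. The largest rise there among the 19 G1 to S regulators was nevertheless 0.63 (lowest edgeR adjusted p of that list 0.0565). Raw Ccne1 counts, not scaled for depth, were 660, 619, 823 and 925 in progenitor CreER controls and 1189, 1157, 1245 and 1470 in knockouts. With Mx1Cre they were 1614, 714, 321 and 471 against 1699, 1023, 853 and 815. The Ccne1 rise is therefore not read as particular to LSK cells. At an unadjusted p under 0.05 stood 3 of 19 G1 to S regulators, 1 of 7 firing factors, 1 of 4 further cycling genes, and none of the fork factors or histone genes.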

How the data were processed

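RNA of 32 libraries from 16 mice was analysed, 4 in each of 8 groups taken from the sample titles. Per the labels' protocols, 50 ng of RNA was made into TruSeq libraries and read as paired 80 bp ends. The authors deposited whole-number counts per gene, not normalized, from featureCounts on mm10 per the submitters' processing notes. Strand setting, annotation, aligner and tool versions: not given in the sources used here. Overlapping genes may share counts. Symbols came from RefSeq for 25275 of 27179 genes (3.92% of counts had none).

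Counts were analysed in edgeR 4.0.16 (R 4.3.3) with TMM and filterByExpr (minimum count 10, total 15). Quasi-likelihood p-values were adjusted by Benjamini-Hochberg over all genes tested, with a threshold of 0.05. One fit held the 16 LSK libraries and one the 16 progenitor libraries, and comparisons across populations used all 32 together. Across 11 planned comparisons and 1 added, all 44 genes could be named. By their labels, LSK and progenitor libraries of 1 mouse come from the same animal, and their deviations from group means correlated at a median r of 0.248 (14 of 16 pairs over 0.1). Knockouts and controls are different mice, but in LSK Mx1Cre all 4 pairs with the same replicate number in their titles correlated over 0.1 (0.129 to 0.245). Same-numbered Mx1Cre knockouts and controls also share a labelled sex. An alternative fit held a term for the replicate number, shared by both Cre lines of a population, and so did not model these pairs alone. P-values measure the spread between mice, and intervals on reads cover counting error only. Alternatives were DESeq2 1.42.0 size factors and test, limma-voom (limma 3.58.1), other filters, a 1.5-fold test, sex, length, blocks and omitted libraries. The length trend was removed as a per-library offset on log2 exon length. The script was tested on simulated data with 48 to 50 genes changed at each size. Changes of 1.25-fold were called for 24% (LSK mean), 6% (LSK CreER), 4% (progenitor mean) and 0% (progenitor CreER) of them. Changes of 1.5-fold were called for 67.35%, 44.9%, 41.67% and 6.25%. A count of 0 called is therefore not a sign that small changes were absent. Members and lists were chosen with earlier results of these data known. Some results on nucleotide supply genes are not reported here.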

Additional observations from a re-analysis of the deposited data

Results flagged for a closer look

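A library was singled out where, among the 4 libraries of a group, its gap to the nearest other exceeded Dixon's 95% limit as a share of the group's range. This was checked for 28 genes and the class sums in 248 groups and picked 20 values, where chance alone gives about 12.4 (1 in 20).

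Progenitor Mx1Cre control 1, the library with the steepest skew towards short transcripts, gave 8 of the 20. It was high for Gmnn (216.7 CPM, others 88.48 to 94.52), Rfc4 (121.5, others 58.48 to 68.01), Gins1 (86.54, others 54.25 to 58.78) and Gins2 (78.72, others 59.98 to 62.77). It was also high for Rfc3 (86.84, others 44.6 to 49.84), Rpa2 (243.9, others 133.4 to 143.9) and the fork sum (3406, others 2810 to 2911), and low for Mcm2 (309.2, others 461 to 487.4).

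Progenitor Mx1Cre knockout 4, which shares that skew, was high for Rfc4 (108 CPM, others 73.08 to 77.69), Rpa3 (55.74, others 29.54 to 32.85) and the firing sum (638.6, others 585 to 589.8). Knockout 3 of that group was low for Rpa1 (201.6, others 230.6 to 233.3).

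LSK CreER knockout 1 was high for Mcm6 (986.5 CPM, others 692.8 to 728.4), Pcna (244.2, others 204 to 209.3) and Rfc2 (287.9, others 244.1 to 246.7). LSK Mx1Cre knockout 2, the deepest library, was low for Fen1 (177.6, others 220 to 222.5) and for the licensing sum (3164, others 3401 to 3435). Progenitor CreER control 3 was high for Lig1 (319.5, others 290.8 to 295.1) and for the fork sum (3164, others 3014 to 3023), and control 1 of that group was low for the firing sum (514.9, others 581.9 to 595.5).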

How the results depend on the processing

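Counts of called genes are given as alternative against reported. A percentage beside a count is the share of all genes tested that the same alternative called. Tested against a 1.5-fold change, 0 genes were called in the LSK mean (10 reported), LSK Mx1Cre (11), progenitor mean (3), progenitor Mx1Cre (1), and LSK against progenitor in CreER (7) and Mx1Cre (23) controls. In these comparisons that test called 1.82% (progenitor mean) to 6.05% (LSK Mx1Cre) of all genes tested. DESeq2 called 2 in LSK CreER (0 reported), 2 in the LSK difference between Cre lines (0), 1 in progenitor CreER (0), 4 in progenitor Mx1Cre (1) and 2 in the added difference between control contrasts (0). Its shares of all genes tested were 6.30%, 8.715%, 1.34%, 9.23% and 2.73% in that order. With the length trend removed, 2 were called in LSK CreER (4.64%), 1 in the LSK difference between Cre lines (4.40%) and 3 in progenitor Mx1Cre (8.59%). With no filter on low counts, 1 was called in the progenitor mean (4.91%) and 0 in progenitor Mx1Cre (3.94%). With a filter of 1 CPM in 4 libraries, 2 were called in progenitor Mx1Cre (6.17%). With the libraries compared alone, 1 was called in progenitor CreER (1.19%), 0 in progenitor Mx1Cre (2.66%) and 5 in LSK against progenitor with Mx1Cre (9.51%). Without progenitor Mx1Cre control 1 and knockout 4, 2 were called in progenitor Mx1Cre (10.04%) and 15 in LSK against progenitor with Mx1Cre (19.98%).

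Replicate numbers of knockouts and controls mark different mice. Deviations of same-numbered pairs correlated at -0.28 to 0.432 (8 of 16 over 0.1), and outside LSK Mx1Cre not every pair passed 0.1. With the replicate block, 9 were called in the LSK mean (26.8% of all genes tested), 10 in LSK Mx1Cre (29.9%) and 0 in LSK CreER (2.52%). In progenitors 2 were called in the mean (6.81%) and 0 with Mx1Cre (5.70%). With the mouse as a block, LSK against progenitor gave 8 calls with CreER (22.2% of all genes tested) and 26 with Mx1Cre (34.6%). Of the 8, 1 was higher, as also with the length trend removed or the libraries compared alone. The blocks changed no other count by over 1.5 times.

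Leaving out 1 library at a time gave 6 to 16 calls in the LSK mean, 0 to 1 in LSK CreER (1 without knockout 1 or knockout 3), 6 to 17 in LSK Mx1Cre, 0 to 7 in the LSK difference between lines, 1 to 4 in the progenitor mean, 0 in progenitor CreER and 0 to 2 in progenitor Mx1Cre (0 without control 2 or 4 or knockout 1, 2 or 3). It gave 7 in LSK against progenitor with CreER, 12 to 27 with Mx1Cre, and 0 in the difference between populations. Shares over all genes are not given for these omissions, so nothing particular to the members is read from how their counts moved. The sign turned for 4 genes that were not called: Cdc6 in the LSK mean (-0.01133 without LSK CreER knockout 1, and up to 0.05627), and in the progenitor mean Gmnn (-0.04274, up to 0.3034) and Mcm2 (0.001762, down to -0.1095), both without progenitor Mx1Cre knockout 4, and Cdc7 (-0.006511, -0.01966 and -0.003564 without progenitor CreER control 3, Mx1Cre control 4 or Mx1Cre knockout 1, and up to 0.06004). The cause was not tested. With 4 mice a group at this depth, the 95% interval lay within 1.5-fold for 39 of 44 genes in progenitor CreER and in progenitor Mx1Cre, and the other 5 were less closely bounded.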
